A study of Mus musculus with 12 samples.

Results

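Genes of the cytosolic nucleic acid sensing pathway, 9 in all, were followed in mouse testes that do or do not hold the LINE-1 (L1) retrotransposon in check. They are *Mb21d1* (the gene of cGAS), *Tmem173* (STING), *Ddx58* (RIG-I), *Ifih1* (MDA5), *Tlr3*, *Mavs*, *Tbk1*, *Irf3* and *Irf7*. They were taken by name, as the older symbols of the count table give them, and all 9 were found among its 20620 gene rows. Whole testes came from C57BL/6 mice at postnatal day 16, either *Mael*+/- or *Mael*-/-. *Mael* encodes Maelstrom, a protein of germ cells that is needed to make the piRNAs that silence transposons, and the heterozygous testes are the controls. Extracts of both genotypes were made with cycloheximide, which holds ribosomes on mRNA, and each gave a total RNA library and a library of ribosome footprints, with 3 biological replicates per genotype. A whole testis holds Sertoli, Leydig, peritubular and blood-derived cells besides germ cells, so a level here is an average over all of them, and a change in the number of cells of a type cannot be told apart from a change of RNA per cell.

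The pathway has a DNA arm and an RNA arm. cGAS binds double-stranded DNA in the cytosol and makes the cyclic dinucleotide cGAMP, which activates STING on the endoplasmic reticulum. RIG-I and MDA5 are helicases that bind double-stranded RNA and pass the signal to MAVS on mitochondria, while TLR3 reads double-stranded RNA inside endosomes. The arms meet at the kinase TBK1, which phosphorylates the transcription factors IRF3 and IRF7, and these switch on type I interferon. Transposon RNA, and the DNA copied from it by reverse transcription, are ligands that this pathway has been studied for. The comparison set the level of its genes, in RNA and on ribosomes, in testes where L1 is released beside that in controls.

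The genotypes differed in the way the labels say. *Mael* RNA was at 173 ± 39.9 CPM (gene counts relative to the library total after TMM scaling, mean ± SD, n = 3) in heterozygous and 0.0573 ± 0.0513 CPM in *Mael*-/- testes. RNA of L1Md_T, a young L1 subfamily, was at 85.4, 55.9 and 66.5 CPM in the heterozygous replicates 1 to 3 and at 521, 471 and 306 CPM in *Mael*-/-. Gene counts summed to between 13697267 and 27462358 per RNA library and between 7609932 and 13233565 per footprint library. Heterozygous extract 1 stood apart: its 11 pachytene marker genes summed to 912 CPM in RNA against 293 and 311 CPM in the other heterozygous extracts and 247 to 293 CPM in *Mael*-/-. Several results are given with and without it.

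None of the 9 genes was called as changed in either assay, or in translation efficiency, at an adjusted p under 0.05 in edgeR. In RNA, 8 of 9 had a higher fitted level in *Mael*-/- testes and *Irf3* a lower one, with a median log2 fold change of 0.20 and a range of -0.06 to 0.49. Over all 14685 genes tested in RNA, 49.6% had a higher fitted level in *Mael*-/-, 0.116% were called and the median was -0.0013. In these fits of all libraries without a block, no member had an unadjusted p under 0.05 in either assay. Of all tested genes, 5.4% had one in RNA and 4.33% in footprints. In footprints, where 0.0593% of 13500 genes were called and 47.6% were higher, 6 members were higher and 3 lower. Their median was 0.11, with a range of -0.10 to 0.28. In translation efficiency, the change of footprints beyond that of RNA, 0% of 13448 genes were called (0.394% had an unadjusted p under 0.05, none of them a member). There 3 members were higher and 6 lower, against 48.6% of all genes higher, and the median of the members was -0.05. The smallest adjusted p of a member in edgeR was 0.936 for RNA, 0.999 for footprints and 1.0 for translation efficiency.

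The intervals say how large a change could have gone unseen. In RNA, the 95% confidence interval of the fold change lay within 2-fold in either direction for 8 of the 9 members and within 1.5-fold for 5. In footprints it lay within 2-fold for all 9 and within 1.5-fold for 4. In translation efficiency, fitted with the libraries of an extract unpaired, it lay within 2-fold for 7 and within 1.5-fold for 4. The lowest bound there was 0.434-fold. With libraries paired by extract it lay within 2-fold for all 9, with a lowest bound of 0.504-fold. The upper bounds of *Tmem173* and *Irf7* RNA, at 2.0-fold and 1.89-fold, were the highest. In these fits of all libraries without a block, a rise above 2.0-fold was outside the interval of every member in RNA. In footprints the highest bound was 1.64-fold. With the replicate block the highest bounds were 2.03-fold in RNA and 1.62-fold in footprints. The bounds also depend on single libraries: without heterozygous RNA replicate 3 the log2 fold change of *Irf7* RNA was itself 0.66.

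**Figure D1:**
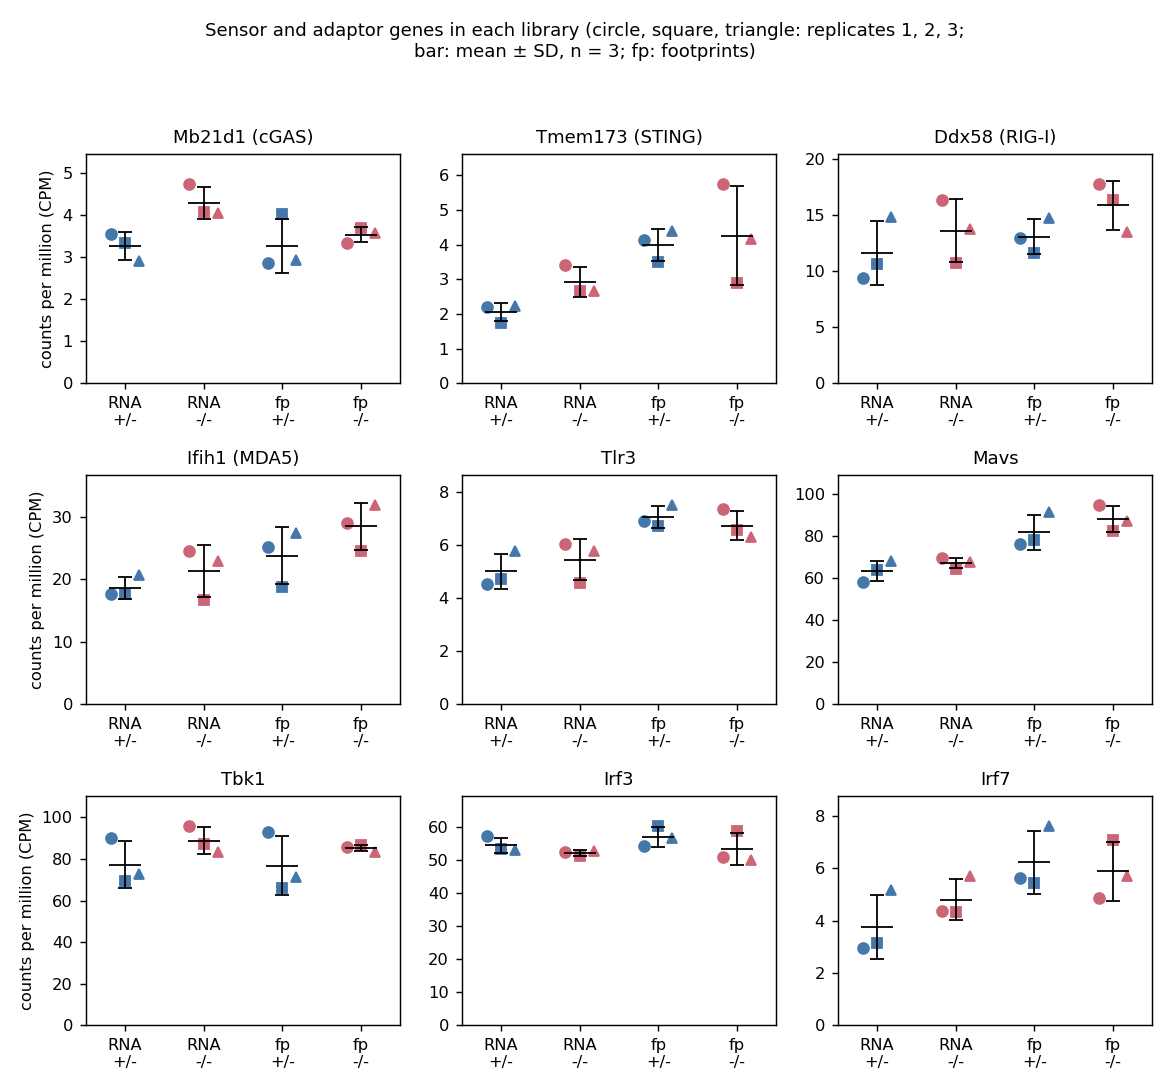
Level of the 9 genes in each of the 12 libraries, in CPM from 0, for RNA and footprints (fp) of *Mael*+/- (blue) and *Mael*-/- (red) testes. Bars give the mean ± SD of 3 replicates, and of the 18 pairs of groups only *Mb21d1*, *Tmem173* and *Irf3* RNA do not overlap.

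The sensor and the adaptor of the DNA arm were among the least abundant genes of the set. *Mb21d1* lies on the minus strand of chromosome 9 from 78430518 to 78443237 (build GRCm38, the assembly called mm10 by the study). Its RNA was at 3.55, 3.33 and 2.91 CPM in heterozygous replicates 1 to 3 and at 4.73, 4.06 and 4.05 CPM in *Mael*-/-. Every *Mael*-/- library was above every heterozygous one, and the log2 fold change was 0.39 (SE 0.19, 95% interval -0.04 to 0.82, edgeR adjusted p = 0.938). On ribosomes the same gene gave 2.86, 4.01 and 2.93 CPM in heterozygous and 3.33, 3.69 and 3.56 CPM in *Mael*-/- libraries. The genotypes overlapped there, with a log2 fold change of 0.12 (interval -0.42 to 0.65).

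*Tmem173* is on the minus strand of chromosome 18, from 35733678 to 35740554. STING RNA was at 2.21, 1.76 and 2.23 CPM in heterozygous and 3.42, 2.68 and 2.66 CPM in *Mael*-/- testes. This was the largest difference of the set and again without overlap, with a log2 fold change of 0.49 (SE 0.23, interval -0.02 to 1.0, edgeR adjusted p = 0.936). Its footprints, at 4.14, 3.49 and 4.39 CPM against 5.75, 2.89 and 4.15 CPM, overlapped, because *Mael*-/- libraries 1 and 2 were the highest and the lowest of all 6. The log2 fold change there was 0.10 (interval -0.51 to 0.71), and it was -0.20 without *Mael*-/- footprint library 1.

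Genes whose RNA did not overlap between genotypes were 10.3% of all tested genes, 5.23% with *Mael*-/- higher and 5.03% with it lower. Among the members they were 3 of 9, *Mb21d1* and *Tmem173* higher and *Irf3* lower. The same count in footprints was 0 of 9, against 9.09% of all genes. These low values rest on few reads. *Tmem173* held 48 to 59 counts in the heterozygous RNA libraries and 47 to 73 in *Mael*-/-, and its spread between replicates (CV 13.0% and 14.9%) was close to the 13.8% and 13.1% that counting error alone gives at such counts. Without heterozygous RNA replicate 1, the log2 fold change was 0.44 for *Mb21d1* and 0.53 for *Tmem173* (edgeR adjusted p = 0.771 for each), and that of *Ddx58*, 0.22 with all libraries, was 0.08.

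**Figure D2:**
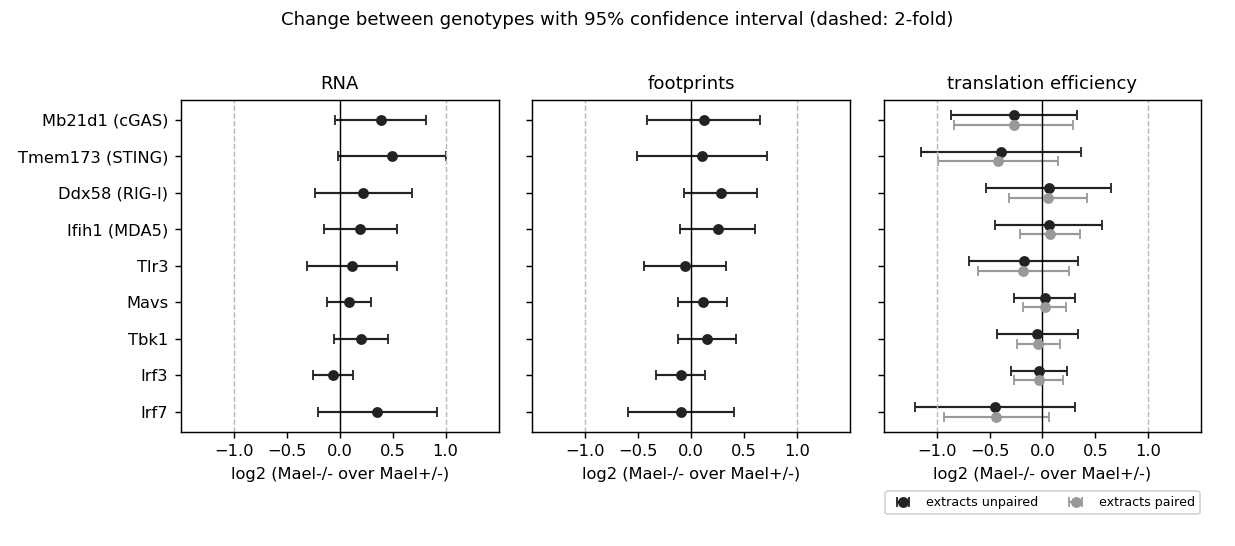
Log2 fold change of each gene, *Mael*-/- over *Mael*+/-, with its 95% confidence interval, by assay and, in the right panel, in translation efficiency with the libraries of an extract unpaired (black) and paired (grey). Every interval in the 3 panels includes 0, and dashed lines mark a 2-fold change.

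The cytosolic RNA helicases were more abundant than cGAS, with mean RNA levels of 2.55 (*Ddx58*) and 3.63 (*Ifih1*) against 0.922 CPM per kilobase of mRNA. *Ddx58* (chromosome 4, 40203777 to 40239825, minus strand) was at 9.36, 10.7 and 14.8 CPM in heterozygous RNA and 16.4, 10.8 and 13.7 CPM in *Mael*-/-, so the genotypes overlapped. Its footprints were at 12.9, 11.6 and 14.7 CPM against 17.8, 16.4 and 13.5 CPM. Here *Mael*-/- libraries 1 and 2 were above all heterozygous ones and library 3 was not, and the log2 fold change of 0.28 was the largest of the set in footprints (SE 0.16, interval -0.06 to 0.62, edgeR adjusted p = 0.999).

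*Ifih1* (chromosome 2, 62595618 to 62646255, minus strand) was at 17.7, 17.6 and 20.7 CPM in heterozygous RNA and 24.5, 16.7 and 23.0 CPM in *Mael*-/-. Library 2 of *Mael*-/- was the lowest of the 6 and the other two were the highest. Footprints were at 25.1, 18.8 and 27.5 CPM against 29.0, 24.5 and 31.9 CPM, with a log2 fold change of 0.25 (interval -0.10 to 0.61). *Ddx58* and *Ifih1* were the only members with a log2 fold change above 0.2 in footprints, and neither passed the test.

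The promoters of the members were searched for sites of the interferon response. An interferon-stimulated response element, bound by interferon regulatory factors, was sought on both strands, as GAAA, any 2 bases and GAAA, from 250 bases before to 50 bases after a RefSeq transcription start (GRCm38). It occurred in 3.44% of 32851 such windows, and in those of *Ifih1* and *Ddx58* among the 8 members with a window. For *Tlr3* the start used lies 695 bases inside the gene, so its window does not hold the 5′ end given for the gene, and for *Irf7* it lies 75 bases inside. The windows of 7 of the 8 members hold the 5′ end of their gene. A GAS element (TTC, any 3 bases and GAA, both strands), present in 8.3% of all windows, was in none of these 8 windows. The matches are printed in capitals with their flanks, 5′ to 3′ on the strand of the gene, for the pair of helicase genes that hold them. For *Ifih1* the match starts 32 bases after the start of transcription, and for *Ddx58* it starts 2 bases after it, on the opposite strand. A match of letters is not evidence that a factor binds there.
Ifih1, chr2:62646206-62646233, minus strand: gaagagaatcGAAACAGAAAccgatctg
Ddx58, chr4:40239804-40239833, minus strand: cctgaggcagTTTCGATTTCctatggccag

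*Tlr3*, the endosomal receptor (chromosome 8, 45395665 to 45411075, minus strand), had RNA at 4.55, 4.72 and 5.78 CPM in heterozygous and 6.04, 4.56 and 5.76 CPM in *Mael*-/- testes. Footprints were at 6.89, 6.73 and 7.51 CPM against 7.34, 6.59 and 6.29 CPM. Both pairs of groups overlapped, with log2 fold changes of 0.12 (interval -0.31 to 0.54) in RNA and -0.06 (interval -0.45 to 0.33) in footprints.

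MAVS, the adaptor of the helicases, was measured with the tightest intervals beside IRF3. *Mavs* (chromosome 2, 131234063 to 131248025, plus strand) had RNA at 58.5, 63.8 and 68.1 CPM in heterozygous and 69.6, 64.7 and 67.9 CPM in *Mael*-/- libraries, and footprints at 76.4, 78.2 and 91.6 CPM against 95, 82.7 and 87.6 CPM. Groups overlapped in both. The fold change was 1.06 in RNA (interval 0.920 to 1.22) and 1.08 in footprints (interval 0.918 to 1.27). On the log2 scale the change in RNA was 0.086, and 0.029 without heterozygous RNA replicate 1.

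TBK1 is the kinase shared by the arms, and its values depended on heterozygous extract 1. *Tbk1* (chromosome 10, 121546455 to 121586794, minus strand) had RNA at 90.0, 69.2 and 72.7 CPM in heterozygous and 95.8, 87.1 and 83.2 CPM in *Mael*-/- testes. Footprints were at 92.8, 66.2 and 71.1 CPM against 85.7, 86.5 and 83.4 CPM. In both assays the heterozygous replicates 2 and 3 were below every *Mael*-/- library, and replicate 1, the one with high pachytene markers, was not. With all libraries the log2 fold change was 0.20 in RNA (SE 0.11, edgeR adjusted p = 0.975) and 0.15 in footprints (SE 0.12, adjusted p = 0.999). Without heterozygous replicate 1 it was 0.32 in RNA (SE 0.10, edgeR adjusted p = 0.337) and 0.31 in footprints (SE 0.09, adjusted p = 0.472). The part of germ cell composition in the *Tbk1* values was not tested.

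Of the transcription factors, *Irf3* had the smallest standard error of the set in RNA. It lies on the plus strand of chromosome 7 from 44997648 to 45002848. RNA was at 57.2, 53.4 and 53.1 CPM in heterozygous and 52.5, 51.3 and 52.9 CPM in *Mael*-/- libraries. All *Mael*-/- values were lower, but the lowest heterozygous and the highest *Mael*-/- value were less than 1 CPM apart, and the fold change was 0.957 (interval 0.838 to 1.09, edgeR adjusted p = 0.982). On the log2 scale the change in RNA was -0.063, and -0.029 without heterozygous RNA replicate 1. Footprints, at 54.3, 60.4 and 56.7 CPM against 51.1, 58.9 and 50.1 CPM, overlapped, with a fold change of 0.934 (interval 0.797 to 1.10).

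*Irf7* (chromosome 7, 141263183 to 141266499, minus strand) is itself an interferon-stimulated gene, and amplifies the response that IRF3 begins. RNA was at 2.95, 3.15 and 5.17 CPM in heterozygous and 4.37, 4.31 and 5.69 CPM in *Mael*-/- testes. Heterozygous replicate 3 was above *Mael*-/- replicates 1 and 2, so the groups overlapped, and the log2 fold change was 0.36 (SE 0.25, interval -0.21 to 0.92, edgeR adjusted p = 0.982). Without heterozygous RNA replicate 3 it was 0.66 (adjusted p = 0.404 in edgeR). Footprints went the other way, at 5.62, 5.43 and 7.61 CPM in heterozygous and 4.84, 7.08 and 5.70 CPM in *Mael*-/-, with a log2 fold change of -0.10 (interval -0.59 to 0.40).

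The ratio of footprints to RNA, each per kilobase and within an extract, gives the level of each gene on ribosomes relative to its mRNA. For *Irf7* it was 2.58, 2.34 and 1.99 in heterozygous and 1.501, 2.22 and 1.35 in *Mael*-/- extracts, which overlapped, and the change of translation efficiency was -0.45 on the log2 scale (interval -1.20 to 0.30). With libraries paired by extract it was -0.43 (SE 0.24, interval -0.93 to 0.06). For *Tmem173* the ratio was 3.36, 3.57 and 3.53 in heterozygous and 3.01, 1.94 and 2.80 in *Mael*-/- extracts. All *Mael*-/- values were lower, as for 3.56% of all genes, and the change was -0.39 (interval -1.14 to 0.37), or -0.42 when paired (interval -0.99 to 0.14). Single libraries set the size of both. Without *Mael*-/- footprint library 1 the change of *Tmem173* was -0.69 and without library 2 it was -0.17, while that of *Irf7* ran from -0.75 (without heterozygous RNA replicate 3) to -0.27 (without heterozygous footprint replicate 3). *Tmem173* was the only member whose ratios did not overlap. For *Mb21d1* the change of translation efficiency was -0.27, and -0.41 without both libraries of heterozygous extract 1. The ratios of *Mavs* were between 2.59 and 2.88 in all 6 extracts and those of *Tbk1* between 1.238 and 1.43.

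The members fell into distinct classes of abundance. Per kilobase of mRNA, *Tbk1*, *Irf3* and *Mavs* were at means of 27.4, 26.3 and 20.5 CPM per kilobase over the 6 RNA libraries, at the 73.1, 71.9 and 64.8 percentile of 13396 genes. *Ifih1* followed at 3.63, *Ddx58* at 2.55, *Irf7* at 2.30, *Tlr3* at 1.17, *Tmem173* at 1.08 and *Mb21d1* at 0.922 CPM per kilobase, where the median gene was at 12.3. The kinase, the mitochondrial adaptor and IRF3 thus made up 84.8 to 88.9% of the summed RNA level of the 9 genes in every library, and 83.2 to 85.5% in footprints. All 4 cytosolic receptors and adaptors that are specific to an arm, other than MAVS, stood below the 25th percentile.

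Neighbours in this order were not always separable. In heterozygous RNA the ranges of *Irf3* and *Tbk1* overlapped, as did those of *Ddx58* and *Irf7* and those of *Tmem173* and *Mb21d1*, while the other neighbours were separate. In *Mael*-/- RNA *Tbk1* was above *Irf3* without overlap, at 29.3 ± 2.12 against 25.7 ± 0.417 CPM per kilobase (SD, n = 3). *Mavs* came first in footprints in both genotypes, at 54.3 ± 5.49 in heterozygous and 58.5 ± 4.09 CPM per kilobase of coding sequence in *Mael*-/-, with *Irf3* next and then *Tbk1*, at 35.0 ± 6.46 and 38.9 ± 0.732. Over all 6 extracts the ratio of the means was 2.75 for *Mavs*, at the 77.5 percentile of genes, and 1.35 for *Tbk1*, at the 24.8 percentile, with a median gene at 1.83. *Tmem173* had the highest ratio of the set, 2.98, at the 81.0 percentile.

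**Figure D3:**
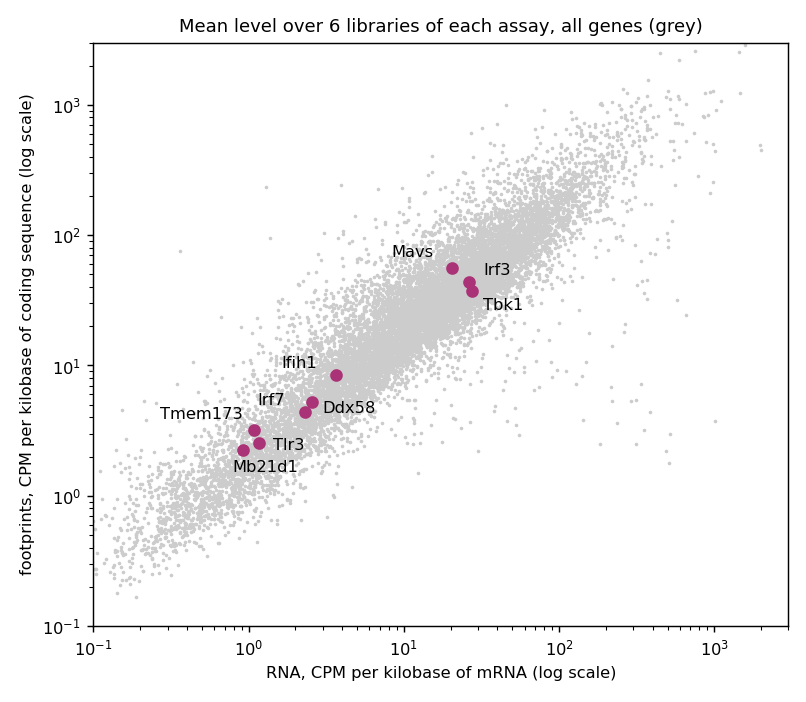
Mean RNA level (CPM per kilobase of mRNA) against mean footprint level (CPM per kilobase of coding sequence) over the 6 libraries of each assay, on log axes, for 13396 genes (grey, those within the axes) and the 9 members (labelled). *Mavs*, *Irf3* and *Tbk1* lie together above the median gene of both assays, and the other 6 lie in the lower part of the cloud.

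How alike the members varied is a description over 12 libraries that share an extract between assays. After the mean of each assay was removed, Pearson's r of the log2 CPM of 36 member pairs ran from -0.64 to 0.81 with a median of 0.24, and 26 pairs were above 0. The highest was between *Ddx58* and *Tlr3* (0.81) and the lowest between *Ifih1* and *Irf3* (-0.64). Among 11234 or 11235 genes with at least 50 counts on average in each assay, the most alike was *Serpina5* for *Mavs* (0.98), *Cep135* for *Tbk1* (0.97), *Bcl2l12* for *Irf3* (0.95), *Pura* for *Mb21d1* (0.95), *Drp2* for *Ddx58* (0.95), *Col4a3* for *Ifih1* (0.94), *Akirin1* for *Tmem173* (0.91), *Pgap2* for *Irf7* (0.89) and *Snx7* for *Tlr3* (0.87). The highest of so many correlations is high by selection.

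*Bcl2l12*, the best match of *Irf3*, is also its neighbour on the chromosome. It runs on the minus strand from 44991222 to 44997638, head to head with *Irf3*, with 9 bases between the annotated starts. These 9 bases are printed in capitals, with 10 bases on each side, on the plus strand, because the pair starts from the same short stretch of DNA.
Irf3 and Bcl2l12, chr7:44997629-44997657, plus strand: gcgttcccagCATGCCTGTaggcggaagg
*Bcl2l12* RNA was at 32.3, 30.2 and 29.9 CPM in heterozygous and 29.5, 28.6 and 30.3 CPM in *Mael*-/- libraries. In footprints it was at 28.2, 32.2 and 27.7 CPM against 24.8, 29.8 and 25.3 CPM, and library 2 was the highest of each genotype for both genes.

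The rest of the pathway was read from 5 lists of 101 genes. Of all tested genes, 49.6% were higher in *Mael*-/- in RNA and 47.6% in footprints, the background for each list below. Of the 89 genes tested in RNA, 53 were higher and 36 lower in *Mael*-/- testes, with a median log2 fold change of 0.05. None was called, as against 0.116% of all tested genes. An unadjusted p under 0.05 was found for 3 (3.37%), against 5.4% of all genes. Genotypes did not overlap for 9 of the 89, against 10.3% of all genes. Of the 84 tested in footprints, 50 were higher and 34 lower, with a median of 0.03. None was called, as against 0.0593% of all genes, and 2 (2.38%) had an unadjusted p under 0.05, against 4.33%. Genotypes did not overlap for 9 of the 84, against 9.09% of all genes. In translation efficiency, 40 of 82 were higher and none had an unadjusted p under 0.05, against 0.394% of all genes.

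Other sensors, such as further cytosolic DNA and RNA binding proteins, were higher for 13 of 18 genes in RNA and 10 of 16 in footprints, with medians of 0.09 and 0.05. *Hmgb1*, a chromatin protein that binds nucleic acids, was at 167 ± 11.4 CPM against 175 ± 4.78 CPM in RNA, and *Ddx41*, a helicase reported to sense DNA, at 108 ± 7.80 against 103 ± 2.03 CPM. Other adaptors and kinases were higher for 9 of 20 genes in RNA, with a median of -0.0071. *Prkra*, whose protein activates the kinase PKR and, as the study states, can also repress it, was at 169 ± 27.3 against 180 ± 11.9 CPM. *Surf4*, a cargo receptor that returns STING to the endoplasmic reticulum, was at 307 ± 11.5 against 306 ± 15.2 CPM.

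Nucleases and negative regulators, which remove ligands or damp the signal, were higher for 9 of 20 genes in RNA and 10 of 19 in footprints. Genotypes did not overlap for 2 of the 20 in RNA and 6 of the 19 in footprints, against 10.3% and 9.09% of all genes. *Banf1*, which competes with cGAS for DNA, had a log2 fold change of -0.08 in RNA (interval -0.37 to 0.20), and *Rnaseh2c*, a subunit of the enzyme that removes RNA from RNA-DNA hybrids, one of -0.06 (interval -0.30 to 0.19). *Tnfaip3*, which encodes the ubiquitin-editing enzyme A20, was at 6.46 ± 0.298 CPM against 8.53 ± 0.628 CPM in RNA, a log2 fold change of 0.40 (edgeR adjusted p = 0.855). In footprints it was at 5.41 ± 0.429 against 7.58 ± 0.781 CPM, a log2 fold change of 0.48 (edgeR adjusted p = 0.999). It was the only gene of the 5 lists with an unadjusted p under 0.05 in both assays, and its genotypes overlapped in neither. *Usp18*, which restrains interferon receptor signalling, had a log2 fold change of 0.52 in footprints (edgeR adjusted p = 0.999). Without 1 library it ran from 0.40 to 0.66, and the unadjusted edgeR p reached 0.184. *Dak*, an inhibitor of MDA5, had a log2 fold change of -0.59 in RNA (edgeR adjusted p = 0.922). That value rests on heterozygous extract 1: *Dak* RNA was at 37.1, 17.7 and 17.6 CPM in heterozygous and 15.4, 15.96 and 16.6 CPM in *Mael*-/- libraries, and without heterozygous replicate 1 the log2 fold change was -0.14 (adjusted p = 0.957).

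Transcription factors, interferon receptors and their kinases were higher for 10 of 16 genes in RNA and 8 of 16 in footprints. *Jak1* was at 319 CPM in the mean of both genotypes, and *Ifngr2* at 204 and 202 CPM. The 21 interferon gene rows were almost empty: 15 had no count in any of the 12 libraries, *Ifnb1* among them, and no other held more than 3 counts in a library. At these depths 3 counts, the upper limit that a count of 0 allows, are 0.109 to 0.218 CPM in RNA and 0.227 to 0.388 CPM in footprints, counting error only.

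Interferon-stimulated genes were higher for 12 of 15 tested in RNA (median 0.08) and for 10 of 13 in footprints (median 0.26), with none called. *Oasl2*, an oligoadenylate synthetase-like gene, was at 14.5 ± 1.82 against 18.4 ± 2.19 CPM in RNA, without overlap (log2 fold change 0.33, edgeR adjusted p = 0.905). Without 1 library the change ran from 0.23 to 0.44, and the unadjusted edgeR p reached 0.159. *Ifitm3* was at 20.1 against 21.2 CPM and *Bst2* at 19.2 against 20.1 CPM in RNA. The 20 genes of the list summed to 92.5, 102 and 121 CPM in heterozygous and 120, 112 and 117 CPM in *Mael*-/- RNA, so heterozygous replicate 3 was the highest of all and the other heterozygous libraries the lowest. In footprints they summed to 147, 150 and 188 CPM in heterozygous and 191, 173 and 168 CPM in *Mael*-/-, where *Mael*-/- library 1 was the highest.

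Macrophage markers showed a like pattern over the RNA libraries. Macrophages carry many of the sensors, and all 12 markers tested had a higher fitted RNA level in *Mael*-/- (median 0.34, none called), as had 11 of 12 in footprints (median 0.23). Their sum was 219, 203 and 340 CPM in heterozygous RNA and 318, 319 and 325 CPM in *Mael*-/-, and in footprints 227 to 436 CPM against 352 to 410 CPM. Heterozygous replicate 3 was above every *Mael*-/- library in both assays. It was also the heterozygous library with the highest *Irf7*, *Ddx58*, *Ifih1*, *Tlr3*, *Mavs* and *Tmem173* RNA. For *Tmem173* this was by 2.23 against 2.21 CPM in replicate 1. *Tbk1* RNA was instead highest in heterozygous replicate 1, at 90.0 against 72.7 CPM in replicate 3. Replicate 3 was the lowest heterozygous library for *Mb21d1* RNA (2.91 CPM) and *Irf3* RNA (53.1 CPM). The same replicate was the highest of all 6 libraries for Sertoli markers, at 6174, 6440 and 7253 CPM in heterozygous RNA against 6522 to 7130 CPM in *Mael*-/-, and in footprints at 9643, 10656 and 12774 CPM against 10929 to 12099 CPM. It was also the highest for Leydig markers, at 336, 403 and 549 CPM in heterozygous RNA against 282 to 538 CPM in *Mael*-/-, and at 674 to 1074 CPM against 546 to 959 CPM in footprints. Peritubular and endothelial markers followed another pattern. All 7 had a higher fitted RNA level in *Mael*-/- testes (median 0.15, none called), and their sum did not overlap between genotypes, at 922 to 957 CPM in heterozygous and 1033 to 1070 CPM in *Mael*-/- RNA, while in footprints it did, at 1188 to 1452 against 1433 to 1764 CPM. The part of these cell types in the members' levels was not tested.

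**Figure D4:**
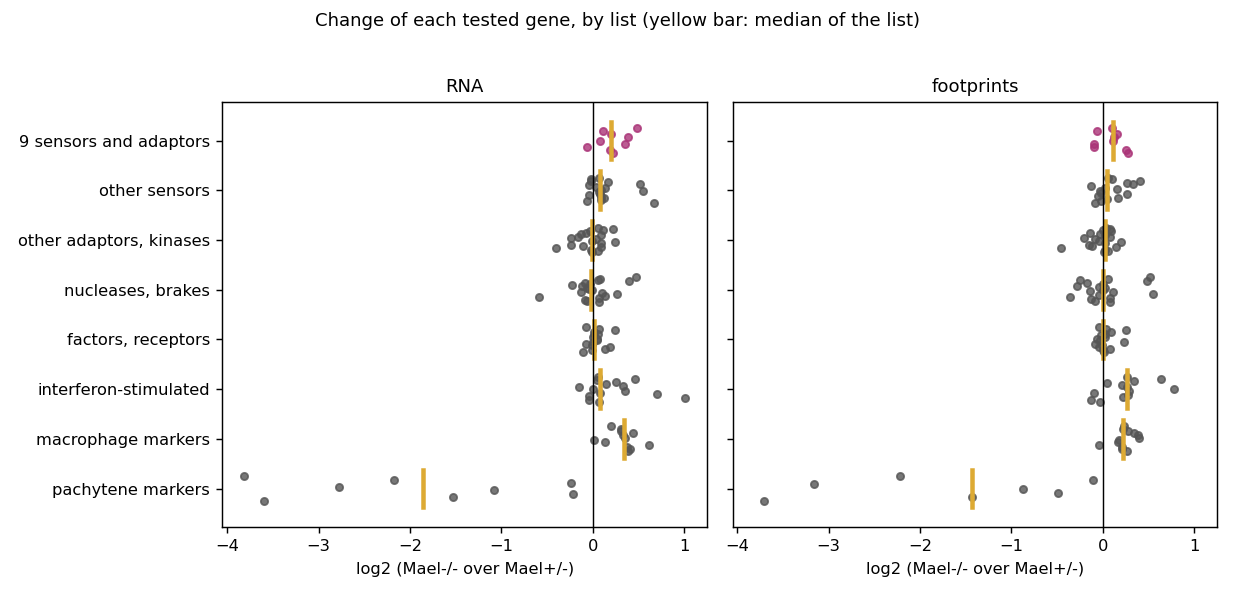
Log2 fold change, *Mael*-/- over *Mael*+/-, of each tested gene of the 9 members, the 5 other pathway lists, the macrophage markers and the pachytene markers, in RNA and in footprints, with the median of each list (yellow bar). In RNA 8 of 9 members, 12 of 15 interferon-stimulated genes and all 12 macrophage markers lie above 0, as do 49.6% of all tested genes. All 8 tested pachytene markers lie below it in RNA, where heterozygous extract 1 is high. Genotypes do not overlap for 5 of these 8 markers in RNA and for 4 of 7 in footprints, against 10.3% and 9.09% of all genes.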

How the data were processed

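Total RNA (stranded, depleted of ribosomal RNA) and footprints of micrococcal nuclease-treated extracts were sequenced. The authors clipped linkers, removed ribosomal DNA reads (Bowtie 1.2.2), mapped to mm10 with STAR 2.6.0c and deposited raw counts from featureCounts (Subread 1.6.4), over whole mRNAs for RNA and coding sequence for footprints. Whether duplicates were collapsed or strand was used in counting is not given in the sources used here. The authors' DESeq2 result tables (fold changes, standard errors, p-values) were not used.

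Tests ran over the whole gene table in edgeR 4.0.16 (R 4.3.3; quasi-likelihood, TMM within assay, default filter on low counts, Benjamini-Hochberg adjustment, threshold 0.05), RNA and footprints over 6 libraries each and translation efficiency as the interaction of genotype and assay over 12. The tests were first tried on simulated counts. By the protocol, aliquots of the extracts gave both the RNA and the footprint libraries. Same-numbered RNA and footprint libraries of a genotype were taken to share an extract, which neither the protocol nor the titles state. Their deviations from the group mean correlated across 12181 genes (r 0.65 to 0.79 for heterozygous, 0.23 to 0.24 for *Mael*-/-), so fits with the extract as a block were run too. Lengths for CPM per kilobase come from RefSeq (GRCm38.p6), which covered 20410 genes. Summed gene counts of a library were 13697267 to 27462358 (RNA) and 7609932 to 13233565 (footprints), and intervals cover the spread of the deposited counts. Alternatives were DESeq2 1.42.0, limma 3.58.1 (voom), another scaling, other filters, the block and leaving out libraries. Leaving out both libraries of heterozygous extract 1, and single libraries for the genes of the other lists, was added after the data had been seen.

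All 9 members are named. Of the other lists, the text names the 2 genes with the highest RNA level per length, and up to 5 per assay with the smallest unadjusted p under 0.05 and no overlap between genotypes. The members and lists were chosen with earlier results of these data known.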

Additional observations from a re-analysis of the deposited data

How the results depend on the processing

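No member was called under any alternative run in RNA, footprints or translation efficiency. The unadjusted p (edgeR, DESeq2 or voom) fell under 0.05 in at least 1 alternative for some members. These were *Tbk1*, *Irf7*, *Ifih1* and *Mb21d1* in RNA, *Tbk1* in footprints and *Irf7* in translation efficiency. Over all genes, the 17 calls in RNA became 66 with DESeq2, 36 with limma voom, 4 with a minimum mean of 50 counts and 50 with the replicate block, and 2 to 64 without one library (64 without heterozygous replicate 1). The 8 calls in footprints became 26 with DESeq2, 1 with the minimum of 50 and 23 with the replicate block, and 2 to 17 without one library (17 without heterozygous replicate 1). Translation efficiency gave 0 calls in every fit. The replicate block of RNA or footprint libraries alone pairs genotypes by a number that the labels do not explain: same-numbered libraries of the 2 genotypes correlated at 0.27, 0.012 and 0.18 in RNA and 0.071, 0.24 and 0.058 in footprints. No block changed the call of a member. With the replicate block, *Tbk1* RNA had an unadjusted p of 0.047 in edgeR (adjusted p = 0.726). Its log2 interval was 0.0027 to 0.41.

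Of 383 recomputed fold changes of members, 361 kept their sign. *Tlr3* RNA turned to -0.0035 with voom. The other reversals came from leaving out a library, where log2 fold changes ran from -0.20 to 0.31 for *Tmem173* and -0.25 to 0.0803 for *Irf7* in footprints, and in translation efficiency from -0.16 to 0.21 for *Ddx58*, -0.0895 to 0.17 for *Ifih1*, -0.0337 to 0.11 for *Mavs*, -0.11 to 0.0073 for *Irf3* and -0.17 to 0.11 for *Tbk1*. The cause was not tested. The minimum of 50 counts left out *Mb21d1* and *Tmem173* in footprints and translation efficiency, which therefore have no value there. *Mb21d1* and *Tmem173* held 27 to 111 counts per library, which limits what could be seen.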
